A study of Homo sapiens with 15 samples.

Results

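The mRNAs described here are those of 9 genes known as immediate early or short-lived transcripts, namely the AP-1 transcription factor subunits JUN, JUNB, JUND and FOS, the zinc finger transcription factor EGR1, the response genes IER2 and IER5, the deadenylation cofactor BTG2 and the survival protein MCL1. They were taken by symbol from the 21519 genes of the deposited count table, with no threshold on their values but with earlier results of these data known. All 9 passed the filter on low counts, as did 12197 genes in all. No growth factor or other stimulus of these genes is described, and no decay rate was measured. The name therefore describes what is known of these genes and not a property seen in these data. All libraries come from cells treated with cycloheximide, and its part in the levels and their spread was not tested.

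RNA came from HEK-293, an established human embryonic kidney line, in 4 groups. Input GEMIN5 (n = 3) and Input control (n = 4) are the cytoplasmic lysate of cells transfected with the plasmid pcDNA3Xpress-Gemin5 and of untreated cells. Polysome GEMIN5 and Polysome control (n = 4 each) are sucrose gradient fractions 8 to 12 of the same 2 kinds of cell, which hold mRNAs carrying several ribosomes. All 4 groups were treated with cycloheximide, which holds ribosomes on the mRNA. Transfection was transient, for 24 h, and the control cells are labelled untreated, with no mock or empty plasmid, so the effects of GEMIN5 and of transfection cannot be told apart. GEMIN5, an RNA-binding protein of the complex that assembles splicing particles and one that also binds ribosomes, was measured as a check of the labels. Levels are given as CPM, read counts scaled to the TMM-adjusted library size. GEMIN5 averaged 1428 ± 112 CPM in Input GEMIN5 (SD, n = 3), against 13.9 ± 1.71 in Input control (SD, n = 4). On polysomes it averaged 924 ± 187 CPM in GEMIN5 cells, against 5.80 ± 1.26 in control cells (SD, n = 4 each). By its title the series asks whether RNA processing that changes with GEMIN5 levels is carried into translated mRNA.

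Immediate early genes are transcribed within minutes of a growth factor, serum or stress signal, without new protein synthesis. The signal reaches their promoters through kinases such as ERK, which act on serum response factor and its partners and on CREB. Many of their mRNAs carry AU-rich elements in the 3′ untranslated region, which bind proteins that recruit deadenylases, and are degraded quickly. FOS proteins pair with JUN proteins to form AP-1. JUND is the member of the JUN family that resting cells express most steadily. BTG2 binds the CCR4-NOT deadenylase and restrains proliferation, and MCL1 is an unstable member of the BCL2 family that restrains apoptosis.

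The AU-rich pentamer ATTTA was present in the annotated 3′ untranslated region of 8 of 9 genes, with IER2 the exception. The number of copies was 10 in IER5 and in MCL1, 5 in FOS, 3 in JUN, 2 in JUNB and BTG2 and 1 in JUND and EGR1. Per kilobase, 5 of 9 genes lay above the median of 1.76 copies over 11457 tested genes, led by FOS with 6.20. In the last 500 bases ATTTA was found in 7 of 9 genes, against 64.3% of 8633 tested genes. The longer element TTATTTATT was found in FOS (1 copy) and IER5 (3 overlapping copies), against 8.99% of tested genes. Most mRNAs thus hold the pentamer, and few hold the longer element of FOS and IER5. The richest 30-base stretch of the 8 genes follows on the strand of the mRNA (GRCh38, GENCODE 29), to show how the overlapping repeats of FOS and IER5 differ from the isolated copies of the others, with ATTTA in capitals.

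FOS (chr14:75282057-75282086, plus strand): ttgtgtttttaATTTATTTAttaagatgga
IER5 (chr1:181092448-181092477, plus strand): ttcctttATTTATTTATTTATTTAattata
JUNB (chr19:12793059-12793088, plus strand): aatatatttgtgtATTTAacagggagggga
JUN (chr1:58781336-58781365, minus strand): ttccagaaaggatATTTAagaaaatacaat
JUND (chr19:18279998-18280027, minus strand): tcgattctgccctATTTAtgtttctactcg
EGR1 (chr5:138469063-138469092, plus strand): actgaaaatgtaaATTTAtaaatatattca
BTG2 (chr1:203307527-203307556, plus strand): taaatgaagagctATTTAtatatattattt
MCL1 (chr1:150576217-150576246, minus strand): gacctaATTTAactggtgaaATTTAaagtg

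Of the 9 genes, 8 had a RefSeq promoter sequence (GRCh38.p14), MCL1 being the other. In the 250 bases before the start, TGACG, the core that CREB and ATF factors bind, was found on either strand in 7 of 8 promoters, against 21.7% of 27305 promoters. The full site TGACGTCA, which holds the core on both strands, was found in JUND, against 1.77% of promoters. EGR1 held 2 CArG boxes, the site of serum response factor, against 1.14% of promoters with any. TATAAA was found in FOS and JUNB, against 11.1%. No promoter of the 8 held the AP-1 site TGANTCA (6.60% of promoters) or the EGR site GCGTGGGCG (0.710%), on either strand. Only these exact patterns within the 250 bases were searched, so other forms of a site and sites further upstream were not counted. The promoters of the 2 genes that varied most between replicates, EGR1 and FOS, and of JUND, which varied least, are printed 5′ to 3′ on the strand of the gene, with these motifs in capitals. CGTCA is TGACG read on the other strand.

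EGR1 (chr5:138465229-138465478, plus strand): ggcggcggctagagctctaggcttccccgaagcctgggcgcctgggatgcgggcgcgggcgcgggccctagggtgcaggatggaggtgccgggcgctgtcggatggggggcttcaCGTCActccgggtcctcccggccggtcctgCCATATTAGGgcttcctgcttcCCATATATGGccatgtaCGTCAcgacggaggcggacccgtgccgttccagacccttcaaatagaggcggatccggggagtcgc
FOS (chr14:75278578-75278827, plus strand): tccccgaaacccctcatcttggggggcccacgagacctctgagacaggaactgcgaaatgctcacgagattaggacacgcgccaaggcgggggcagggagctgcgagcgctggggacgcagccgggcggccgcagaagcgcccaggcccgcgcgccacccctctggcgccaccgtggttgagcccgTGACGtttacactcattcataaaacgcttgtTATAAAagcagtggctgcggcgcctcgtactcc
JUND (chr19:18281623-18281872, minus strand): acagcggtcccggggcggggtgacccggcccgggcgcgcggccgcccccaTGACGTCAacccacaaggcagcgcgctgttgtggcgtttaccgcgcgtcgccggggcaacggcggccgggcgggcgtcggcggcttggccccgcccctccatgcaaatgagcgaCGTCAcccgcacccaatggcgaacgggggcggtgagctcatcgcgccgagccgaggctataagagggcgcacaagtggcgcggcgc

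The deposited counts summed to between 11191417 and 18407933 per library. The Input GEMIN5 libraries differed in make-up from the other groups. Ribosomal protein mRNAs took 58.5% ± 2.62 of their counts (SD, n = 3), against 34.9% ± 0.527 in Input control (SD, n = 4; exact two-sided permutation p = 0.0571, the smallest that 3 against 4 allows, and 0.114 adjusted over 6 such comparisons). TMM factors, which rescale libraries so that most genes do not change, were 0.354 to 0.488 in Input GEMIN5 against 0.971 to 1.03 in Input control, and 1.34 to 1.53 in Polysome GEMIN5 against 1.27 to 1.55 in Polysome control. The median log2 ratio of reads over 3′ to 5′ splice junctions (2621 genes) was 2.00 to 2.25 in Input GEMIN5, against 1.10 to 1.22 in Input control. Transcripts under 1000 nucleotides had a median log2 change of 1.58 in Input, while those of 2000 to 4000 nucleotides stood at −0.21. The transcripts of the 9 genes measure 1820 to 4188 nucleotides. A list of 7 HEK-293 markers summed to 188 to 241 CPM by library size in Input GEMIN5 and 685 to 896 in Input control. It summed to 359 to 549 in Polysome GEMIN5 and 376 to 737 in Polysome control. Most of this sum was VIM, with 3010 to 4089 of 3236 to 4434 counts in Input GEMIN5. In that group 5 of 7 markers had counts in every library, against 7 of 7 in each other group. LHX1 had 2, 0 and 0 counts there and PAX2 0, 8 and 1. A list of 22 liver genes summed to 43 to 63 counts per Input GEMIN5 library and 17 to 29 per Polysome GEMIN5 library. It summed to 34, 24, 2084 and 1750 counts in Input control replicates 1 to 4 and to 1803 to 2484 per Polysome control library. Of these 22 genes, 12 were at 0 in every Input GEMIN5 library and 9 in every Polysome GEMIN5 library. ALB, the defining liver gene, had 0 counts in Input GEMIN5 and 0 to 3 in Polysome GEMIN5, against 0, 0, 588 and 414 in Input control and 448 to 584 in Polysome control. Summed counts of 11 blood and immune genes were 97 to 117 in Input GEMIN5, 73 to 120 in Input control, 84 to 116 in Polysome GEMIN5 and 182 to 272 in Polysome control. Those of 6 endothelial and fibroblast genes were 16 to 24 in Input GEMIN5, 25 to 74 in Input control, 28 to 52 in Polysome GEMIN5 and 52 to 91 in Polysome control. The part of these library features in the results below was not tested unless a value without them is given.

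Per kilobase of transcript, JUND had the highest mean of the 9 in the lysate, followed by JUN, and FOS and EGR1 had the lowest. In CPM not divided by length, JUN lay above JUND in Input control, at 50.7 ± 12.5 against 39.4 ± 4.48 (SD, n = 4). By the same measure JUND lay above JUN in Input GEMIN5, at 26.2 ± 1.36 against 20.7 ± 3.15 (SD, n = 3). In Input GEMIN5 JUND averaged 14.1 ± 0.727 CPM per kb and JUN 5.84 ± 0.891 (SD, n = 3), and in Input control JUND averaged 21.2 ± 2.41 and JUN 14.3 ± 3.54 (SD, n = 4). FOS averaged 0.896 ± 0.671 and EGR1 0.466 ± 0.388 CPM per kb in Input GEMIN5, against 1.25 ± 0.904 and 0.726 ± 0.405 in Input control. The order in Input control was JUND, JUN, JUNB, MCL1, IER5, IER2, BTG2, FOS and EGR1. The neighbours JUNB and MCL1, IER5 and IER2, and FOS and EGR1 in that order differed by less than their summed SDs. In Input GEMIN5 the order was JUND, JUN, JUNB, IER2, MCL1, IER5, BTG2, FOS and EGR1, where JUN to MCL1, and likewise BTG2 to EGR1, had no gap between neighbours beyond the summed SDs. In polysomes MCL1 stood at 15.5 ± 4.98 CPM per kb in GEMIN5 cells and 15.3 ± 3.91 in control cells, beside JUND at 17.1 ± 1.42 and 15.6 ± 1.28 (SD, n = 4 each). JUN stood at 12.7 ± 5.45 and 18.0 ± 7.96 CPM per kb in Polysome GEMIN5 and Polysome control. These 3 did not differ beyond their summed SDs in either polysome group. EGR1 lay above FOS in polysomes, at 2.45 ± 2.46 against 0.962 ± 0.703 CPM per kb in GEMIN5 cells and 1.95 ± 1.48 against 1.35 ± 1.04 in control cells, within their spread.

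**Figure D1:**
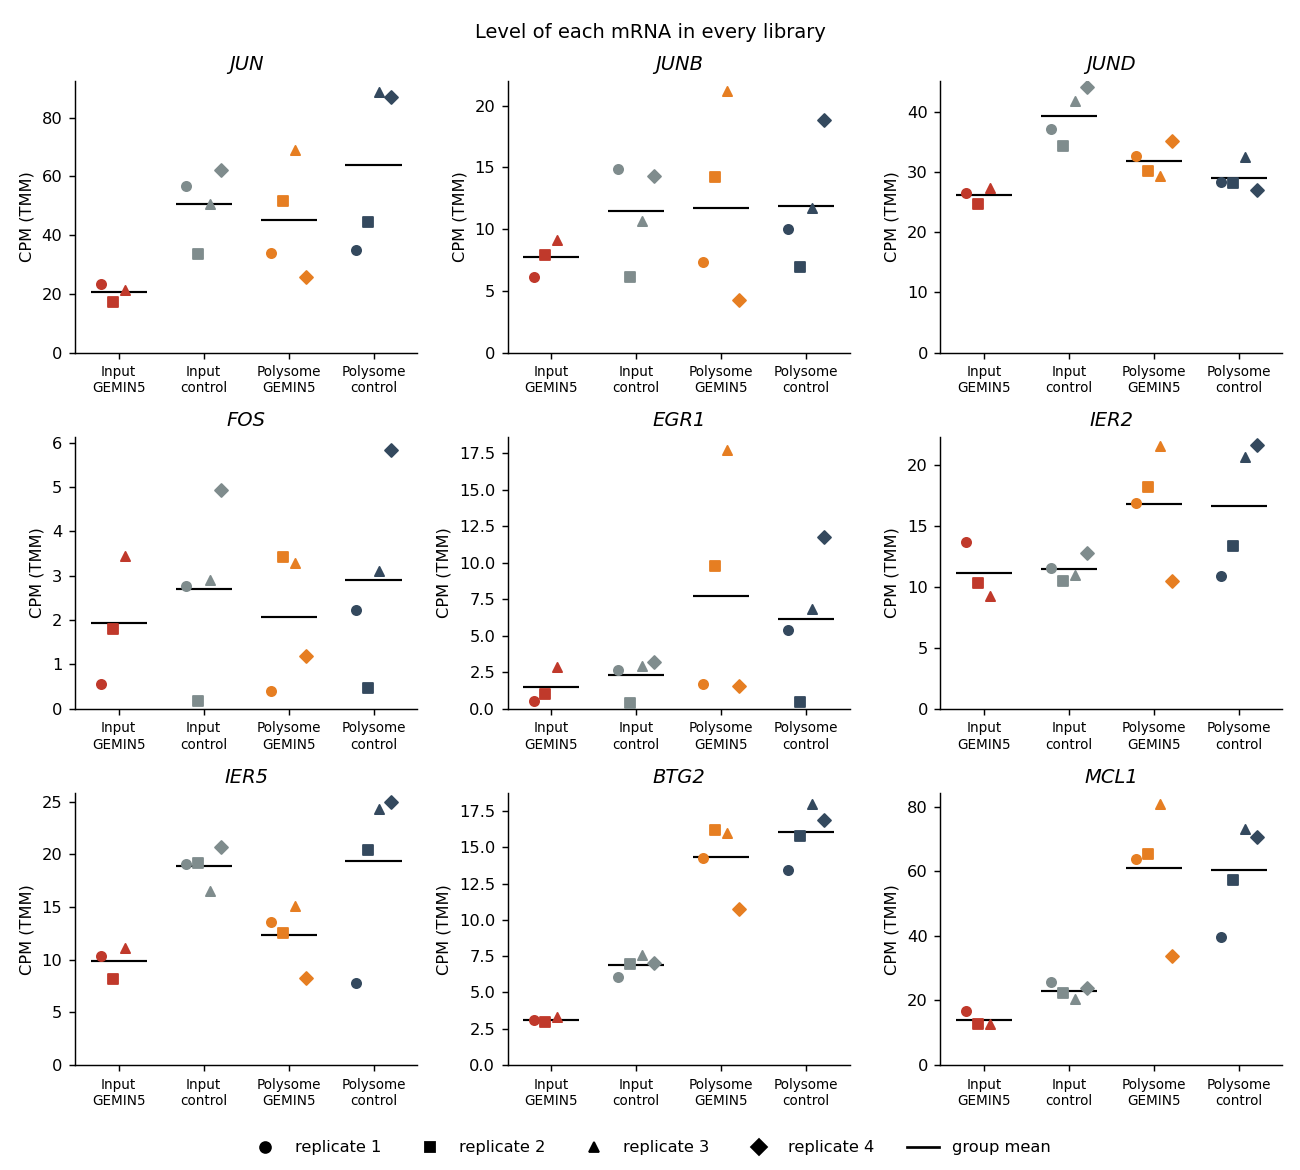
Level of each mRNA (TMM-scaled CPM, linear axis from 0) in all 15 libraries, with the marker shape giving the replicate number and the bar the group mean. JUND points sit close together, FOS and EGR1 points spread over most of their axis, and BTG2 and MCL1 lie higher in both polysome groups than in both Input groups.

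The 9 mRNAs differed widely in how far replicates lay apart. FOS, the most readily induced AP-1 subunit, was low enough for raw counts to matter. It held 5, 11 and 23 counts in Input GEMIN5 replicates 1 to 3 and 36, 3, 42 and 68 counts in Input control replicates 1 to 4. In polysomes it held 7, 73, 70 and 22 counts in GEMIN5 cells and 35, 9, 69 and 96 counts in control cells. The groups overlapped throughout, and the highest Input control library stood 28.7-fold above the lowest in CPM, against a median of 1.26-fold over all tested genes. EGR1 held 5, 6 and 19 counts in Input GEMIN5 and 34, 7, 42 and 44 counts in Input control. It held 30, 208, 377 and 29 counts in Polysome GEMIN5 and 85, 9, 152 and 193 counts in Polysome control. EGR1 was lowest in the same library as FOS in 3 of 4 groups, namely Input GEMIN5 replicate 1, Input control replicate 2 and Polysome control replicate 2.

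The biological coefficient of variation between replicates, edgeR's estimate of the spread after counting noise is removed, was 0.732 for EGR1 and 0.703 for FOS, higher than in 99.7% of tested genes. It was 0.373 for JUNB (higher than 98.5%), 0.293 for JUN (94.2%), 0.252 for IER5 (87.3%), 0.217 for IER2 (76.7%) and 0.213 for MCL1 (74.9%), against a median of 0.168. BTG2 at 0.144 and JUND at 0.114 lay below the median, and only 5.68% of tested genes had a lower value than JUND. Every library's deviation from its group mean showed 2 patterns. In the controls, replicate 2 was the lowest library for FOS, EGR1 and JUNB in both Input and polysomes. In Polysome GEMIN5, replicate 4 was the lowest for 7 of 9 mRNAs (JUN, JUNB, EGR1, IER2, IER5, BTG2 and MCL1) and replicate 3 the highest for 6. In Polysome control, replicate 1 was the lowest for 5 (JUN, IER2, IER5, BTG2 and MCL1). The median log2 ratio of 3′ to 5′ junction reads was 1.32, 1.29, 1.14 and 1.51 in Polysome GEMIN5 replicates 1 to 4. In Polysome control replicates 1 to 4 it was 1.41, 1.85, 1.13 and 1.63. In GEMIN5 cells it was highest in replicate 4, where 7 mRNAs were lowest, and lowest in replicate 3, where 6 were highest. In control cells it was highest in replicate 2, where JUNB, FOS and EGR1 were lowest, and lowest in replicate 3, where 4 were highest. In Polysome control replicate 1, where 5 were lowest, it was not high. Its part in the spread was not tested.

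**Figure D2:**
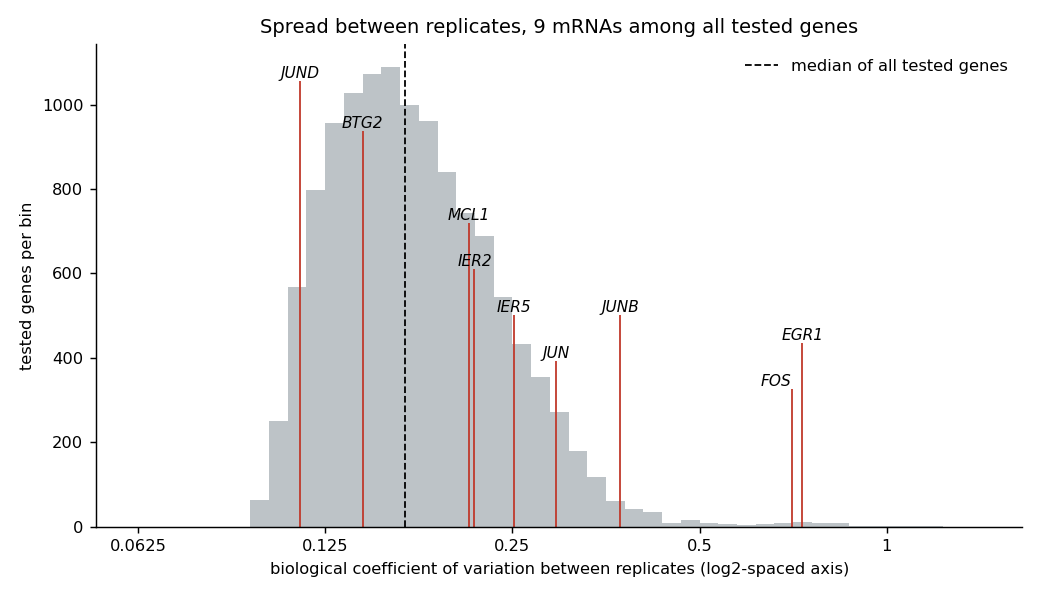
Biological coefficient of variation between replicates of all 12197 tested genes (grey bars, genes per bin, log2-spaced axis) with the 9 mRNAs marked by red lines, whose heights only separate the labels. EGR1 (0.732) and FOS (0.703) lie far to the right of the median of 0.168 and JUND (0.114) in the lower tail.

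**Figure D3:**
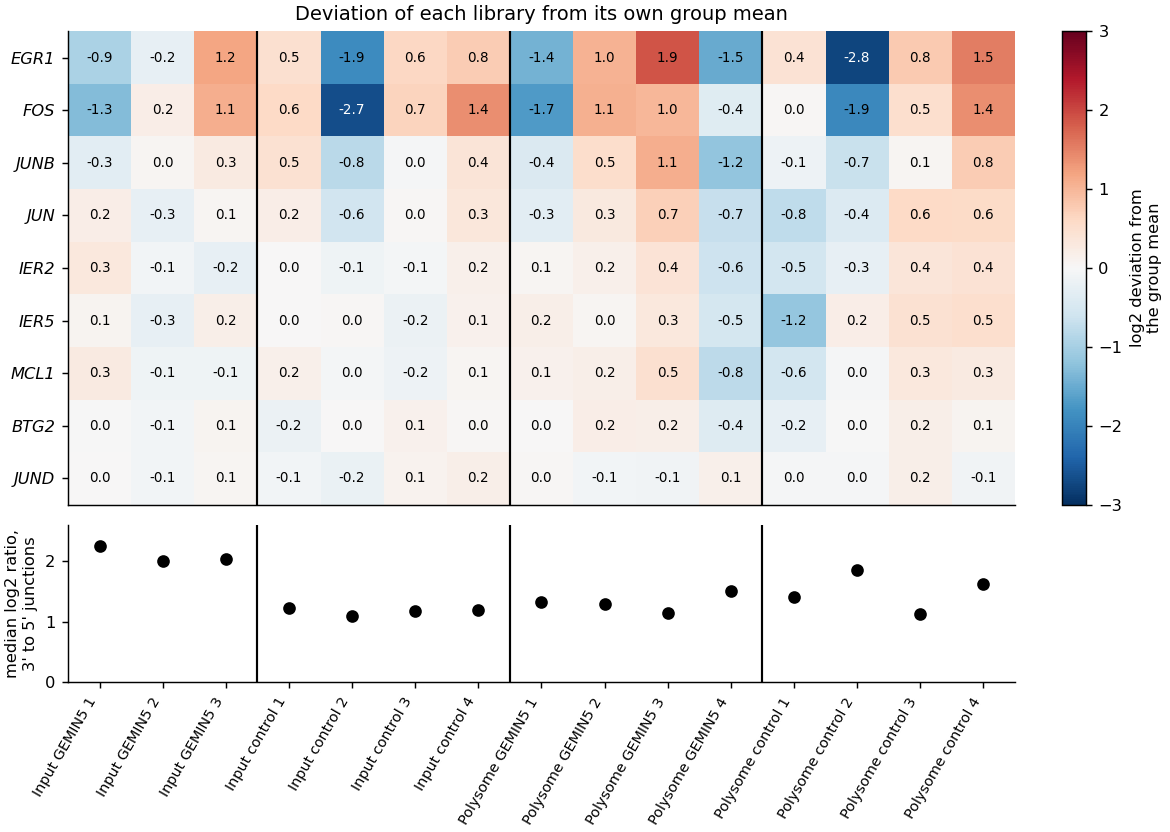
Log2 deviation of each library from the mean of its own group for the 9 mRNAs (colour and printed value, log2 CPM with a prior count of 2), above the median log2 ratio of 3′ to 5′ junction reads of the same library. EGR1, FOS and JUNB are low together in replicate 2 of both control groups, and the values of JUND stay near 0.

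In the lysate, 5 of the 9 mRNAs fell in GEMIN5 cells and none rose. This stands against a background in which 24.3% of all tested genes fell and 27.1% rose (51.5% called in either direction), by edgeR's quasi-likelihood test at an adjusted p under 0.05. The estimate was below 0 for all 9, although FOS and IER2 turned positive in some alternatives. The median log2 fold change was −0.66, against −0.01 over all tested genes. Without Input GEMIN5 replicate 2 the background itself moved, to 2105 genes higher and 3662 lower of 12311 tested (3311 and 2969 of 12197 with it) and a median of −0.24, while 5 of the 9 mRNAs still passed. JUN, the AP-1 subunit that activates its own promoter (chromosome 1, 58776845 to 58784048, minus strand), had 23.4, 17.2 and 21.4 CPM in Input GEMIN5 and 56.7, 33.4, 50.5 and 62.3 CPM in Input control. All GEMIN5 libraries lay below all control libraries. Its log2 change was −1.29 (SE 0.35, edgeR adjusted p = 0.00456). BTG2 (chromosome 1, 203305491 to 203309602, plus strand) had 3.12, 2.95 and 3.29 CPM in Input GEMIN5 and 6.09, 6.94, 7.59 and 7.03 CPM in Input control. It fell by 1.15 on the log2 scale (SE 0.20, edgeR adjusted p = 9.49e-05), with no overlap of the groups.

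JUND, the steadily expressed JUN protein (chromosome 19, 18279694 to 18281622, minus strand), had 26.5, 24.7 and 27.4 CPM in Input GEMIN5 and 37.2, 34.4, 41.9 and 44.2 CPM in Input control. Its change was the smallest of the 5 called (log2 −0.59, SE 0.12, edgeR adjusted p = 0.000609), but its replicates lay close together and the groups did not overlap. IER5, a regulator of heat shock factor HSF1 (chromosome 1, 181088700 to 181092900, plus strand), had 10.4, 8.19 and 11.1 CPM in Input GEMIN5 and 19.0, 19.2, 16.6 and 20.7 CPM in Input control. It fell by 0.93 (SE 0.30, edgeR adjusted p = 0.0144). MCL1 (chromosome 1, 150560895 to 150579738, minus strand) had 16.7, 12.6 and 12.7 CPM in Input GEMIN5 and 25.6, 22.2, 20.6 and 23.9 CPM in Input control, and fell by 0.71 (SE 0.25, edgeR adjusted p = 0.0255). The groups of IER5 and MCL1 did not overlap either, which makes 5 of 9 mRNAs with separate groups, against 58.9% of tested genes. The MCL1 call was lost without Input GEMIN5 replicate 3 (−0.64, edgeR adjusted p = 0.0905) or Input control replicate 1 (−0.65, adjusted p = 0.0564).

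The other 4 mRNAs did not pass in the lysate. JUNB, an AP-1 subunit often opposed to JUN (chromosome 19, 12791486 to 12793315, plus strand), had 6.12 to 9.13 CPM in Input GEMIN5 and 6.08 to 14.9 CPM in Input control (log2 −0.58, SE 0.46, edgeR adjusted p = 0.309). FOS (chromosome 14, 75278826 to 75282230, plus strand) stood at −0.51 (SE 0.91, edgeR adjusted p = 0.667) and EGR1 (chromosome 5, 138465479 to 138469303, plus strand) at −0.66 (SE 1.31, edgeR adjusted p = 0.702). Their 95% intervals ran from −2.42 to 1.40 for FOS and from −3.48 to 2.15 for EGR1, so changes as large as those of JUN were not detectable in either. IER2 (chromosome 19, 13150411 to 13154911, plus strand) had 13.7, 10.3 and 9.28 CPM in Input GEMIN5 and 11.6, 10.4, 11.0 and 12.8 CPM in Input control. Its estimate was −0.03 (SE 0.26, 95% interval −0.57 to 0.51, edgeR adjusted p = 0.930), with groups that overlapped. JUNB overlaps HOOK2 on the other strand, and IER2 an antisense RNA. MCL1 overlaps parts of ADAMTSL4 on the other strand, and of ADAMTSL4-AS1 and RN7SL copies on its own strand. The use of strand in counting is not given, so reads of these 3 genes and of their neighbours may be mixed. Counting by strand would not separate MCL1 from the neighbours on its own strand.

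The size of these changes depends on the scaling. With library size only, the median of all tested genes was −1.29 in Input, 76.0% of genes were called lower, and so were 7 of the 9 mRNAs (median −1.97), with JUNB and IER2 added. Their median lay below that of all genes under both scalings. The 5 calls by TMM were also made when the Input control replicates 3 and 4, which hold the liver gene counts, were both left out. In bulk RNA, fewer cells that express a gene and less of its RNA per cell cannot be told apart.

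In polysomes, no mRNA of the 9 passed between GEMIN5 and control cells (0 of 9 by edgeR's quasi-likelihood test and by DESeq2). Of all tested genes 0.402% were called by edgeR. At an unadjusted p under 0.05 in edgeR there was 1 of 9, for which no share of all tested genes is given. The groups overlapped for all 9, whereas they did not for 3.35% of tested genes. IER5 came closest. It had 13.6, 12.5, 15.1 and 8.29 CPM in Polysome GEMIN5 and 7.81, 20.4, 24.4 and 24.9 CPM in Polysome control, where replicate 1 stood far below the rest. The log2 difference was −0.65 (SE 0.25, edgeR adjusted p = 0.680), and −0.91 without Polysome control replicate 1 (adjusted p = 0.0162). JUN had 33.8, 51.7, 69.0 and 25.8 CPM in Polysome GEMIN5 and 34.8, 44.5, 88.9 and 87.0 CPM in Polysome control (log2 −0.50, SE 0.30, edgeR adjusted p = 0.934). Both groups of JUN spanned more than the difference of their means.

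The intervals of the other mRNAs show how much of a change the polysome data could have missed. JUND had 32.7, 30.2, 29.4 and 35.2 CPM in Polysome GEMIN5 and 28.4, 28.2, 32.5 and 27.1 CPM in Polysome control, a log2 difference of 0.13 with a 95% interval of −0.10 to 0.36 (edgeR adjusted p = 0.952). BTG2 had 14.3, 16.2, 16.0 and 10.8 CPM in Polysome GEMIN5 and 13.5, 15.8, 18.0 and 16.9 CPM in Polysome control, a difference of −0.16 with an interval of −0.46 to 0.13 (edgeR adjusted p = 0.952). These 2 intervals leave out the changes of −0.59 and −1.15 that the same mRNAs had in the lysate. The polysome intervals of MCL1 (−0.42 to 0.45) and JUN (−1.12 to 0.12) likewise leave out their lysate changes of −0.71 and −1.29. That of IER5 (−1.18 to −0.12) includes its lysate change of −0.93. MCL1 stood at 0.01 (−0.42 to 0.45, edgeR adjusted p = 0.998) and IER2 at 0.01 (−0.44 to 0.46, edgeR adjusted p = 0.998). JUNB, FOS and EGR1 had wide intervals, from −0.80 to 0.78, −1.90 to 1.00 and −1.39 to 2.09, with edgeR adjusted p of 0.999, 0.988 and 0.988.

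**Figure D4:**
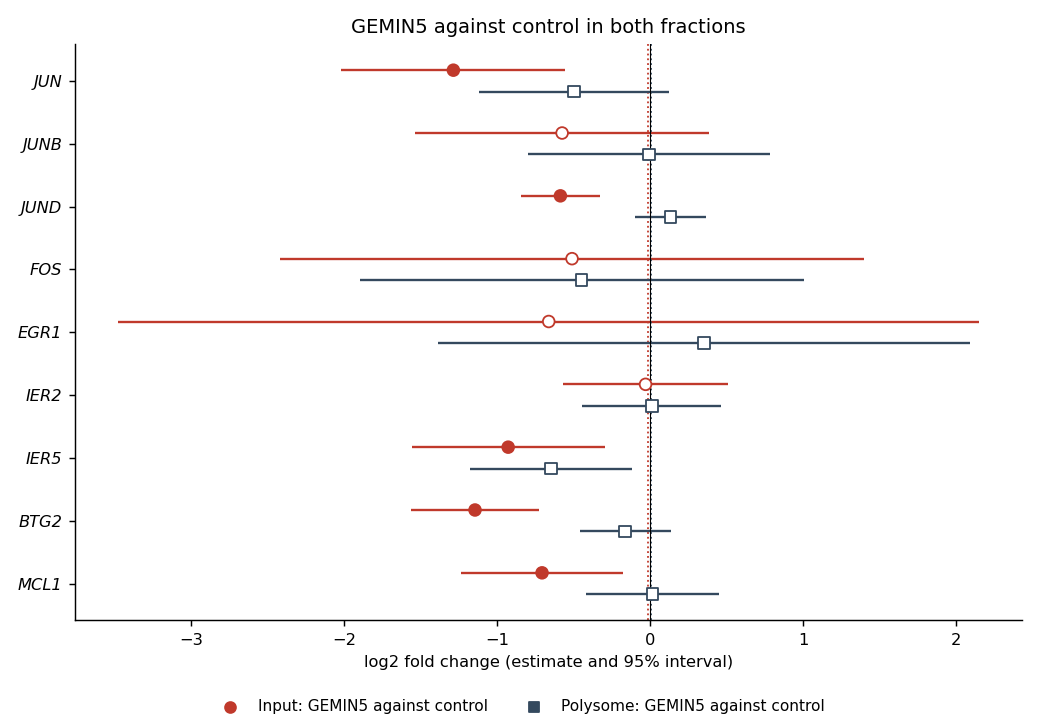
Log2 fold change of GEMIN5 over control for each mRNA in Input (red circles) and in polysomes (dark squares), with 95% intervals from edgeR. Filled symbols passed at an adjusted p under 0.05, and the dotted lines are the medians of all tested genes. The 5 filled Input symbols lie between −1.29 and −0.59, and all polysome symbols are open.

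The difference between the 2 GEMIN5 effects was tested as an interaction, polysomes minus Input. It was positive and passed for JUND (0.72, SE 0.17, edgeR adjusted p = 0.00214) and BTG2 (0.98, SE 0.25, edgeR adjusted p = 0.00395), which makes 2 of 9, while 16.9% of tested genes passed as higher and 20.5% as lower (37.3% in either direction). With library size only 7 of 9 passed as higher, against 69.0% of tested genes. Without Input GEMIN5 replicate 2, 3 of 9 passed, where 2674 of all genes were higher and 1427 lower (2058 and 2495 with it), with a median of 0.21. MCL1 had as large an estimate as JUND but a wider error (0.72, SE 0.33, edgeR adjusted p = 0.0915). It passed by DESeq2 (0.79, adjusted p = 0.0334), under RLE scaling (0.78, adjusted p = 0.0383), without Input GEMIN5 replicate 2 (0.88, adjusted p = 0.0414) and without Polysome GEMIN5 replicate 4 (0.92, adjusted p = 0.00570). JUN stood at 0.79 (SE 0.45, edgeR adjusted p = 0.187), EGR1 at 1.01 (SE 1.54, adjusted p = 0.649), JUNB at 0.57 (SE 0.59, adjusted p = 0.487), IER5 at 0.28 (SE 0.39, adjusted p = 0.613), FOS at 0.06 (SE 1.14, adjusted p = 0.975) and IER2 at 0.04 (SE 0.34, adjusted p = 0.942). The estimates of all 9 were above 0, with a median of 0.72 against −0.01 over all tested genes, although those of FOS and IER2 turned negative in 7 and 5 of their 22 alternatives. The interaction shares its libraries with both GEMIN5 comparisons.

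BTG2 and MCL1 were higher in polysomes than in the lysate in both kinds of cell, with the largest differences among the mRNAs that passed. BTG2 had 14.3, 16.2, 16.0 and 10.8 CPM in Polysome GEMIN5 against 3.12, 2.95 and 3.29 CPM in Input GEMIN5, a log2 difference of 2.20 (SE 0.20, edgeR adjusted p = 1.43e-08). In control cells it had 13.5, 15.8, 18.0 and 16.9 CPM in polysomes against 6.09, 6.94, 7.59 and 7.03 CPM in Input (1.21, SE 0.15, edgeR adjusted p = 4.74e-06). Every polysome library lay above every Input library. MCL1 had 63.7, 65.5, 80.8 and 33.9 CPM in Polysome GEMIN5 against 16.7, 12.6 and 12.7 CPM in Input GEMIN5 (2.11, SE 0.26, edgeR adjusted p = 7.50e-07). In control cells it had 39.8, 57.4, 73.3 and 70.8 CPM in polysomes against 25.6, 22.2, 20.6 and 23.9 CPM in Input (1.39, SE 0.22, edgeR adjusted p = 5.13e-05). Again no polysome library overlapped the lysate.

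In GEMIN5 cells 4 of the 9 mRNAs were higher in polysomes than in Input and none lower, where 32.6% of tested genes were higher and 35.0% lower (67.6% called in either direction). Besides BTG2 and MCL1 these were JUN (1.12, SE 0.35, edgeR adjusted p = 0.00796) and IER2 (0.59, SE 0.25, edgeR adjusted p = 0.0479). The groups did not overlap for 4 mRNAs, JUN, JUND, BTG2 and MCL1, against 64.4% of tested genes. The IER2 call was lost without any of Input GEMIN5 replicate 3 or Polysome GEMIN5 replicates 1, 2 and 3 (adjusted p 0.0722 to 0.168) and with the replicate number as a block (0.57, adjusted p = 0.0781). JUND stood at 0.28 (SE 0.12, edgeR adjusted p = 0.0522) and EGR1 at 2.46 (SE 1.19, edgeR adjusted p = 0.0825), the largest estimate of the 9, with its 4 polysome libraries at 1.70, 9.77, 17.7 and 1.57 CPM against 0.556, 0.983 and 2.84 CPM in Input GEMIN5. EGR1 passed by DESeq2 (2.38, adjusted p = 0.0326) and without Polysome GEMIN5 replicate 1 (2.78, edgeR adjusted p = 0.0329), among 6 alternatives in which it passed. JUNB (0.63, SE 0.45), IER5 (0.32, SE 0.30) and FOS (0.19, SE 0.90) did not pass, with edgeR adjusted p of 0.231, 0.352 and 0.864.

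In control cells 2 of the 9, BTG2 and MCL1, were higher in polysomes and 1, JUND, was lower, where 24.1% of tested genes were higher and 19.1% lower (43.2% in either direction). These 3 were also those whose groups did not overlap, against 43.4% of tested genes. JUND had 28.4, 28.2, 32.5 and 27.1 CPM in Polysome control against 37.2, 34.4, 41.9 and 44.2 CPM in Input control, a log2 difference of −0.44 (SE 0.11, edgeR adjusted p = 0.00340). With library size only, where the median gene stood at 0.54, the estimate of JUND was 0.08 (adjusted p = 0.637). Input control replicates 3 and 4, which carry the liver gene counts, were also its highest lysate libraries, and without both the estimate was −0.30 (edgeR adjusted p = 0.116). IER2 stood just outside the threshold (0.55, SE 0.22, edgeR adjusted p = 0.0540) and passed by DESeq2 (0.49, adjusted p = 0.0487), under RLE scaling (0.49, adjusted p = 0.0464), in a fit of these groups alone, with library size only and without Polysome control replicate 1 or 2. EGR1 stood at 1.44 (SE 0.91, edgeR adjusted p = 0.218) and passed without Polysome control replicate 2 (1.84, adjusted p = 0.0461) and, barely, when scaled by library size alone (1.99, adjusted p = 0.0499). JUN (0.33, SE 0.30), FOS (0.13, SE 0.70), JUNB (0.06, SE 0.38) and IER5 (0.04, SE 0.25) did not pass, with edgeR adjusted p of 0.384, 0.900, 0.922 and 0.911. In GEMIN5 cells under library size only, where the median gene stood at 1.78, all 9 were called higher in polysomes, against 84.5% of tested genes, and in control cells 5 of 9, against 53.2%. The calls by TMM therefore describe changes relative to most mRNAs.

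**Figure D5:**
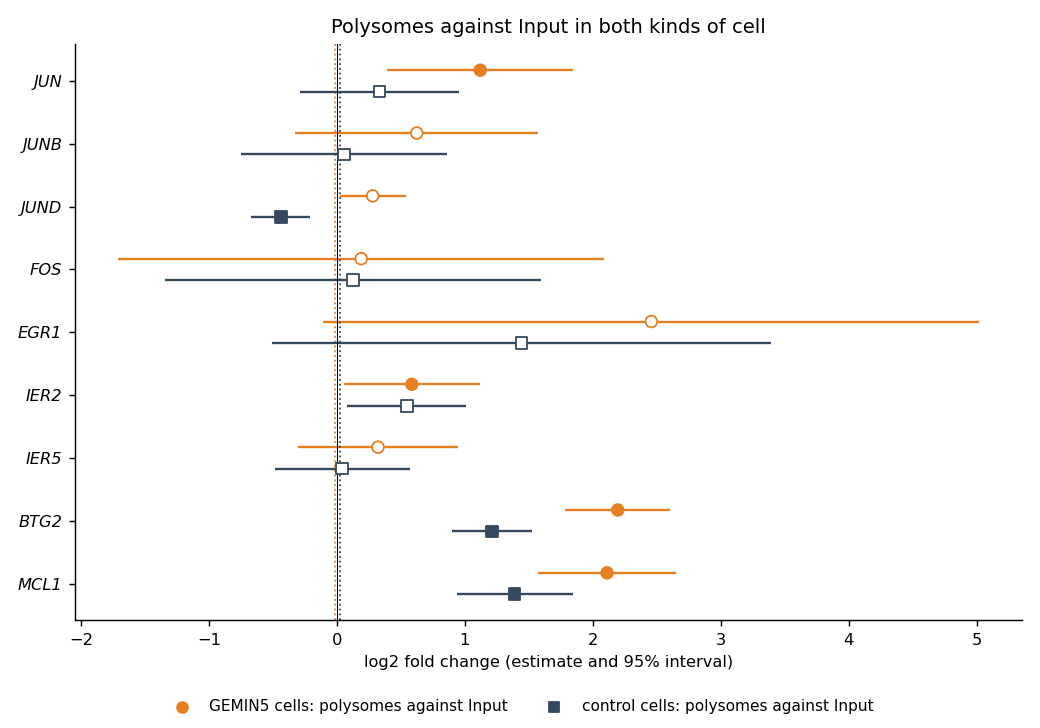
Log2 fold change of polysomes over Input for each mRNA in GEMIN5 cells (orange circles) and control cells (dark squares), with 95% intervals from edgeR, filled where the adjusted p was under 0.05 and with the medians of all tested genes as dotted lines. BTG2 and MCL1 lie furthest right of the filled symbols in both kinds of cell, EGR1 lies as far right or further with open symbols and wide intervals, and JUND is the only filled symbol left of 0.

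The patterns of BTG2 and MCL1 over the 15 libraries were the most alike of the 36 pairs among the 9 mRNAs, with a root mean square difference of 0.27 in centred log2 CPM. JUND and EGR1 were the least alike, at 1.54, and the median over all genes compared was 0.52 for JUND to 1.57 for EGR1. Among 7832 other genes with a mean of at least 5 CPM, CDV3 (0.13) and ZBED4 (0.16) lay nearest to MCL1, and ZCCHC3 (0.14) and ETF1, the translation release factor eRF1 (0.15), nearest to BTG2. STK25 (0.11) was nearest to JUND, and the neurofilament gene NEFM (0.22) and RNF128 (0.23) were nearest to JUN. JUNB lay nearest to NDRG1 (0.35) and to DUSP1, an immediate early phosphatase that inactivates MAP kinases (0.36). FOS lay nearest to C11orf96 (0.68) and ATF3, a stress-induced AP-1 partner (0.84), and EGR1 to BHLHE40 (0.85) and NDRG1 (0.97). IER2 lay nearest to RIMKLB and NEMP1 (0.15 and 0.16) and IER5 to RPA1 and GLUL (0.16 and 0.18). Such a difference grows with a gene's own spread, so its size cannot be compared between FOS or EGR1 and steadier mRNAs, and the same libraries enter all of them.

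Splicing could be followed in few of these genes, since JUN, JUNB, JUND and IER5 have a single exon. The deposited table of 721551 events held 45 events of BTG2, EGR1, FOS, IER2 and MCL1. In Input none of the 11928 events tested with limma belonged to them, so no event of theirs could pass there. In polysomes 1 of 17490 tested events did, exon 2 of MCL1 (chromosome 1, 150578244 to 150578491, 248 nucleotides), whose omission is known to give the shorter MCL1-S. Its inclusion was 100%, 100%, 98.6% and 92.0% in Polysome GEMIN5 and 96.8%, 100%, 98.7% and 98.2% in Polysome control, from 48 to 154 corrected reads per library. Inclusion was thus at or above 92.0% in every polysome library, and the groups overlapped. The means were 97.6% ± 3.82 in Polysome GEMIN5 and 98.4% ± 1.34 in Polysome control (SD, n = 4 each), and the log2 odds differed by 0.42 (SE 1.08, limma adjusted p = 0.978), with the opposite sign to the difference of the means. Of the 17490 events tested in polysomes 0 passed, so not passing is no particular feature of MCL1. The exon was testable only with Polysome GEMIN5 replicate 4, the library at 92.0%. In Input the exon rested on 6 to 10 corrected reads per GEMIN5 library (93.9% ± 10.5, SD, n = 3) and 30 to 42 per control library (98.6% ± 2.78, SD, n = 4).

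The introns of these genes were almost fully removed. Over all 15 libraries the MCL1 introns of 351 and 752 nucleotides had 507 and 561 (corrected) spliced reads against 1.52 and 0.50 intron reads, the 1355-nucleotide BTG2 intron 160 against 0, and the 688-nucleotide EGR1 intron 43 against 0. The FOS introns of 753, 431 and 115 nucleotides had 26.4, 31.0 and 36.4 spliced reads against 1.60, 0 and 0.560 intron reads. The 2391-nucleotide IER2 intron was the exception, with 4.07 spliced and 30.9 intron reads. The transcript of IER2 used here has a single exon.

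Other genes of the same pathways were counted beside the 9. In Input their counts are read against the 24.3% of all tested genes that fell and the 27.1% that rose. Of 49 tested other immediate early genes, 15 fell and 5 rose in Input GEMIN5 (median −0.36), against 38 lower and 1 higher with library size only, where 76.0% of all genes were lower. CITED2, a CBP/p300-binding regulator, had 4.19 ± 1.08 CPM in Input GEMIN5 and 20.3 ± 2.22 in Input control (SD, n = 3 and 4; log2 −2.26, SE 0.31, edgeR adjusted p = 7.50e-06), and KLF10, a TGF-beta-induced zinc finger repressor, fell by 1.94 (SE 0.46, adjusted p = 0.00156). ID3, an inhibitor of helix-loop-helix factors, had 471 ± 94.9 CPM in Input GEMIN5 and 159 ± 9.31 in Input control (SD, n = 3 and 4; log2 1.57, SE 0.15, edgeR adjusted p = 1.27e-07), but 0.25 with library size only (adjusted p = 0.0456). GADD45G, a stress response gene, rose by 2.07 (SE 0.41, adjusted p = 0.000324) at 1.88 CPM in Input GEMIN5 and 0.447 CPM in Input control. Its call was lost with library size only (0.79, adjusted p = 0.0979).

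Of 21 genes that carry ERK, SRF and CREB signals to these promoters, 13 fell and 1 rose in Input GEMIN5 (median −0.56), against 20 lower and 0 higher with library size only. With library size only, 9270 of all 12197 tested genes were lower and 605 higher. ELK1, a partner of serum response factor, had 9.37 ± 0.593 CPM in Input GEMIN5 and 24.2 ± 1.47 in Input control (SD, n = 3 and 4; log2 −1.36, SE 0.13, edgeR adjusted p = 1.24e-07), and the ERK kinase MAP2K1 fell by 1.26 (SE 0.24, adjusted p = 0.000254). MRTFB, a coactivator of serum response factor, rose by 0.91 (SE 0.31, adjusted p = 0.0196), where library size only gave −0.36. Of 27 tested factors that bind AU-rich elements or remove poly(A) tails, 12 fell and 1 rose (median −0.51), against 25 lower and 0 higher with library size only. The CCR4-NOT subunit CNOT2 fell by 1.82 (SE 0.23, adjusted p = 2.59e-06) and BTG1, the closest relative of BTG2, by 1.67 (SE 0.16, adjusted p = 9.85e-08). CNOT1, the scaffold of that complex, had 134 ± 8.68 CPM in Input GEMIN5 and 49.7 ± 2.43 in Input control (SD, n = 3 and 4; log2 1.43, SE 0.14, edgeR adjusted p = 9.46e-08), but 0.13 with library size only.

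The BCL2 family around MCL1 counted 7 of 14 tested members higher and 1 lower in Input GEMIN5 (median 0.73), where 27.1% of all tested genes were higher and 24.3% lower. The lower gene was BCL2L1, which encodes the survival protein BCL-XL (3.04 ± 0.386 CPM in Input GEMIN5 and 7.71 ± 1.14 in Input control, SD, n = 3 and 4; log2 −1.35, SE 0.19, edgeR adjusted p = 1.01e-05). The pro-death members HRK (2.44, SE 0.20, adjusted p = 2.08e-08) and BAD (1.72, SE 0.19, adjusted p = 4.57e-07) rose. With library size only the BCL2 family counted 2 higher and 7 lower, and its median of −0.58 lay above the −1.29 of all genes. By that scaling 605 of all 12197 tested genes were higher and 9270 lower. In polysomes none of these 4 lists had a called member between GEMIN5 and control cells by edgeR (TMM) or DESeq2. At an unadjusted p under 0.05 in edgeR there were 4 of 49, 0 of 21, 1 of 27 and 0 of 14 genes. No share of all tested genes at that unadjusted threshold is given, so no change is read from these counts.

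In polysomes against Input, the serum response factor gene SRF was the most enriched of the signalling genes that passed, by 2.09 in GEMIN5 cells (SE 0.17, edgeR adjusted p = 6.43e-09) and 1.55 in control cells (SE 0.14, adjusted p = 1.94e-07). Of the 27 decay factors, 22 were higher and 4 lower in polysomes of GEMIN5 cells, where 32.6% of all tested genes were higher and 35.0% lower. In control cells 14 were higher and 3 lower, where 24.1% of all tested genes were higher and 19.1% lower. When scaled by library size the decay factors counted 25 higher and 0 lower in GEMIN5 cells and 21 higher and 2 lower in control cells. By that scaling 84.5% of all tested genes were higher in GEMIN5 cells and 53.2% in control cells. CNOT6L, a deadenylase, was the most enriched of those called, by 3.13 in GEMIN5 cells (SE 0.37, edgeR adjusted p = 4.76e-07) and 2.43 in control cells (SE 0.29, adjusted p = 3.15e-06). The decapping scaffold EDC4 was lower, by −2.14 in GEMIN5 cells (SE 0.18, edgeR adjusted p = 8.89e-09) and −1.55 in control cells (SE 0.17, adjusted p = 1.34e-06). Scaled by library size alone, EDC4 stood at −0.33 in GEMIN5 cells, where its call was lost (adjusted p = 0.182), and at −1.03 in control cells (adjusted p = 0.000629). Of 49 other immediate early genes, 20 were higher and 7 lower in GEMIN5 cells and 17 higher and 3 lower in control cells, to be read against the same shares of all genes. Under library size scaling they counted 45 higher and 0 lower in GEMIN5 cells and 25 higher and 0 lower in control cells. The BCL2 family counted 2 higher and 5 lower of 14 in GEMIN5 cells, but 7 higher and 1 lower in control cells. In GEMIN5 cells BCL2L1 was higher by 2.44 (SE 0.19, edgeR adjusted p = 2.67e-09). There HRK stood at −3.36 (SE 0.20, adjusted p = 1.62e-10) and BAD at −1.69 (SE 0.19, adjusted p = 2.34e-07). By library size BAD turned to 0.13 (adjusted p = 0.398), and the family counted 11 higher and 1 lower, against the same 84.5%. In control cells it counted 9 higher and 0 lower by library size, against 53.2%.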

How the data were processed

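The authors deposited raw whole-number counts per Ensembl gene. The submitters' processing notes name featureCounts, STAR 2.7.10a and GRCh38/hg38. How strand and introns were treated in counting is not stated there. A second deposited table gives splicing as percent of transcripts that include a segment (PSI), under vast-tools column names per the file headers, with corrected read numbers in a deposited text field of the unit other.

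Symbols matched 21494 of 21519 IDs (GENCODE 29). After filterByExpr, 12197 genes entered 1 quasi-likelihood fit of all 15 libraries in edgeR 4.0.16 (TMM scaling, robust, R 4.3.3), with Benjamini-Hochberg adjustment over these genes. Scaling, filter, tool (DESeq2 1.42.0), block, fit and libraries were varied. Events were tested where every library compared held 10 or more corrected reads and PSI reached 5 in some library and stayed at or under 95 in some library, with limma 3.58.1 on log2 odds with 0.5 added. Exact permutation tests used SciPy 1.17.1 (Python 3.11.15). Samples were grouped by title. The series calls them independent biological samples without saying what separates the cultures, and p-values rest on the spread between them. No pair of libraries within a group agreed within counting noise (chi-square per gene 3.35 to 92.2). Tested on simulated data with seeded changes (11800 genes run), 79.1% of 2-fold changes were recovered at the Input settings and 89.6% at the polysome settings; the simulation held no shift in composition.

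The 9 genes and all lists were chosen with earlier results of these data known. Besides the 9 genes and GEMIN5, genes were named by rule, as the 2 called with the largest change in each direction per list and the 2 nearest in pattern; a part of these is printed, also for polysomes against Input. The reports of EGR1 and FOS as the most variable, and the choice of printed sequences, followed their values.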

Additional observations from a re-analysis of the deposited data

Results flagged for a closer look

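Of the 27 groups of 4 libraries checked, 0 held a library apart from the rest by Dixon's test, where chance gives about 1 in 20. The GEMIN5 effect differed between polysomes and Input, by the interaction test, for JUND (0.72, edgeR adjusted p = 0.00214) and BTG2 (0.98, edgeR adjusted p = 0.00395). In Input GEMIN5 all 3 libraries of both mRNAs lay below all 4 Input control libraries, while the polysome groups overlapped. Of all tested genes, 16.9% passed the interaction test as higher and 20.5% as lower. The Input groups did not overlap for 58.9% of tested genes, and the polysome groups for 3.35%, so both features are common in these data.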

How the results depend on the processing

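Over 5 comparisons the 45 results of the 9 mRNAs were refitted in 756 alternatives. Direction and side of the threshold were as before in 662. A call was lost in 8 and gained in 38, and the sign turned in 48, of estimates that were not called, except that of JUND below.

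With library size only, 7 of 9 passed for the interaction, 9 for polysomes over Input in GEMIN5 cells and 5 in control cells. In the same comparisons 69.0%, 84.5% and 53.2% of all tested genes were called higher. That scaling put JUNB between the polysome groups at 0.0045 and JUND in control cells, polysomes over Input, at 0.083. Without the filter JUNB stood at 0.0027 between the polysome groups. Without Input control replicates 3 and 4 FOS stood at 0.39 in Input and −0.84 for the interaction. IER5, polysomes over Input in control cells, stood at −0.018 with RLE scaling, −0.021 with DESeq2 and −0.015 with only the groups compared. The cause of these changes was not tested, apart from the shift of the median that library size only brings.

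Over 7839 genes, replicate numbers did not clearly pair the libraries. The correlation of same-numbered deviations was 0.04 to 0.13 in Input (2 of 3 libraries nearest their own number) and −0.74 to 0.66 in polysomes (0 of 4). Between polysomes and Input it was −0.24 to 0.11 in GEMIN5 cells (1 of 3) and −0.13 to 0.36 in control cells (2 of 4). In control cells its mean was 0.14, against −0.05 for other numbers. Control replicate 2 was lowest for JUNB, FOS and EGR1 in both fractions. JUN, JUND and IER2, also lowest in Input control replicate 2, were lowest in another library in polysomes. Pairing of the fractions could thus not be excluded, and the main tests took the libraries as unpaired. With a replicate block 5 mRNAs passed in Input, 0 in polysomes, 2 for the interaction, and 3 for polysomes over Input in GEMIN5 and 3 in control cells. Of all 12197 genes in that fit, 3186 rose and 2855 fell in Input, and 7 rose and 28 fell in polysomes. The interaction was higher for 1956 and lower for 2357. Polysomes over Input were higher for 3896 and lower for 4170 in GEMIN5 cells, and for 2775 and 2215 in control cells. The sign turned for JUNB (0.0029) and MCL1 (−0.0065) between the polysome groups and for IER5 in control cells (−0.0023).

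Leaving out each library in turn gave 4 to 5 calls in Input, 0 to 1 in polysomes, 2 to 3 for the interaction, 3 to 5 for polysomes over Input in GEMIN5 cells and 3 to 5 in control cells. Of 12102 to 12311 genes tested, 2105 to 3226 rose and 2452 to 3662 fell in Input. In polysomes 5 to 18 rose and 4 to 72 fell. The interaction was higher for 1729 to 2674 and lower for 1427 to 2645. Polysomes over Input were higher for 3626 to 4242 and lower for 3493 to 4271 in GEMIN5 cells. In control cells these were 2473 to 3115 and 2017 to 2355. Estimates whose sign turned ranged, between the Input groups, from −0.22 to 0.080 for IER2. Between the polysome groups they ranged from −0.45 to 0.30 for JUNB, −0.81 to 0.12 for FOS, −0.46 to 0.87 for EGR1, −0.14 to 0.18 for IER2 and −0.15 to 0.21 for MCL1. For the interaction they ranged from −0.45 to 0.82 for FOS and −0.12 to 0.23 for IER2. For polysomes over Input they ranged from −0.32 to 0.95 for FOS in GEMIN5 cells, and in control cells from −0.25 to 0.24 for JUNB, −0.44 to 0.61 for FOS and −0.099 to 0.30 for IER5. The log2 odds of MCL1 exon 2 ranged from −0.20 to 0.95. That exon was not testable without Polysome GEMIN5 replicate 4.

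Precision is limited by 3 to 68 counts of FOS and 5 to 44 of EGR1 per Input library, and by 3 to 4 libraries a group.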
